A study of Mus musculus with 4 samples.

Results

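The 35 genes described here are the S and G2/M phase genes of the cell cycle, 15 active around DNA replication and 20 active in G2 and mitosis, among 32285 genes counted. They were chosen by symbol, and each was found once in both count matrices. They were read in single cells of mouse mammary gland organoids, grown from fat pads freed of lymph nodes of virgin mice aged 8 to 9 weeks. Organoids were kept in Matrigel (MATR), in a soft matrix (SOFT), with collagen (COL1) or in a stiff matrix (STIFF), so the comparisons ask how matrix and stiffness go with cycling. Strain, time in culture and the number of mice are not given in the labels, and no genetic change or added agent is named. Each condition was 1 culture, so no difference has a replicate check, no test was possible, and every 95% interval covers counting error only. COL1 and STIFF cells shared a droplet channel, as did MATR and SOFT cells, and hashtag antibodies, which carry a readable tag, told them apart. Which tag marked which culture was read from the names inside the deposited matrices. If the tags were exchanged, COL1 and STIFF would change places, and so would MATR and SOFT.

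The channel of COL1 and STIFF held 10615 barcodes with 133608252 UMIs (unique molecule counts) and that of MATR and SOFT 8767 with 131036333. A filter on depth and mitochondrial share kept 90.1% and 90.6%, and 19 kept barcodes had the same sequence in both channels. Tags placed 1563 cells in COL1, 2451 in STIFF, 1941 in SOFT and 2333 in MATR, with median depths of 11353, 16843, 15233 and 14722 UMIs. No tag was called on 5249 and 3394 kept barcodes of the channels, and 305 and 277 carried both tags. Clusters built without cell cycle genes were named from fixed markers. They gave a basal-like class (698 cells, Krt5 and Acta2), a hormone receptor-positive (HR-positive) luminal-like class (clusters 3, 4 and 7, with Esr1, Pgr and Areg), a hormone receptor-negative (HR-negative) luminal-like class (846 cells, Ltf and Csn3), a fibroblast-like class (504 cells, Col1a1) and an immune-like class (810 cells, with Tyrobp, Cd68 and Csf1r, which macrophages express). Cluster 9, a group of 428 cells with both basal and HR-negative markers, took no class name and is called the mixed cluster. Cluster 2, 982 cells with markers of both luminal classes, also stayed unnamed. It held 124 cells of COL1, 470 of STIFF, 270 of MATR and 118 of SOFT, which count among all tagged cells. Its median doublet score (for barcodes that may hold more than 1 cell) was 0.126, against 0.032 to 0.0817 in the other clusters. Its median depth, 26711.5 UMIs, was also the highest. The part of doublets in this cluster was not tested. HR-positive cells lay in different clusters by condition: cluster 7 held 93 cells of COL1, 11 of STIFF, 148 of MATR and 218 of SOFT.

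A cell that divides first copies its DNA in S phase and then separates the copies in mitosis. The S phase genes open and copy the DNA and make its building blocks, and many are switched on by E2F factors at the G1 to S transition. The G2/M genes drive entry into mitosis, build the spindle and release the chromosomes. Many of them are repressed in resting cells by the DREAM complex through the cell cycle genes homology region (CHR) and carry CCAAT boxes, which bind NF-Y. In the adult virgin mammary gland most epithelial cells rest, and hormone receptor-positive cells are known to divide little and to signal to their neighbours.

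The promoters of 5 members are shown because they carry the letters that differ most between the S and the G2/M genes, or belong to the genes used most in the comparisons. Sequences come from RefSeq's mouse genes on GRCm38.p6 and are the 250 bases before the gene's start, 5′ to 3′ on the gene's strand. Capitals mark matches on either strand to E2F letters (TTTGGCGC, TTTCCCGC, TTTGCCGC or TTTCGCGC), to CHR letters (TTTGAA or TTCGAA) or to CCAAT, whose reverse reads ATTGG. Windows were found for 30 of the 35 members, with 2 windows each for Mcm7 and Uhrf1, and none was used for Tpx2, Mcm4, Ccna2, Aurkb and Gins2. Mcm6 lies at chr1:128359706-128359955, Cdk1 at chr10:69352913-69353162, Ccnb1 at chr13:100786487-100786736, Mki67 at chr7:135716380-135716629 and Top2a at chr11:99024190-99024439, all on the minus strand.
Mcm6: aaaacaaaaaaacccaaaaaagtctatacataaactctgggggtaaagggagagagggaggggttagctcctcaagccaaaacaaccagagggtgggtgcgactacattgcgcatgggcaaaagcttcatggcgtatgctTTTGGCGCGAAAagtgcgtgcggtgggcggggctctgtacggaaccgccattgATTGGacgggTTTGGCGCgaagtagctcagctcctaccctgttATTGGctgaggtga
Cdk1: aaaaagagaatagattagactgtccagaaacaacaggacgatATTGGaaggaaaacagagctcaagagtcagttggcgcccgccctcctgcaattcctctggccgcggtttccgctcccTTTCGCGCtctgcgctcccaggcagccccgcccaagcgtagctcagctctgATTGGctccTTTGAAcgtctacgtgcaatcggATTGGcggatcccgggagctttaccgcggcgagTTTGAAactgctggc
Ccnb1: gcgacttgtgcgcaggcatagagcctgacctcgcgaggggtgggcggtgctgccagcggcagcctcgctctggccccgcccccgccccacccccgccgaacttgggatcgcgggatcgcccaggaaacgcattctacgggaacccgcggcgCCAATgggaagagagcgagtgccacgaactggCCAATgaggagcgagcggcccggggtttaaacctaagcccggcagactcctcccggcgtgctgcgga
Mki67: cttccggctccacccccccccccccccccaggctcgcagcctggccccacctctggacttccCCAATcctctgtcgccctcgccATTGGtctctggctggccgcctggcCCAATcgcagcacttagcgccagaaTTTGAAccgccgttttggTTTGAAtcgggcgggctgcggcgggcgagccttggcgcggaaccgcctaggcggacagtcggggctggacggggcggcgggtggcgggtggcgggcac
Top2a: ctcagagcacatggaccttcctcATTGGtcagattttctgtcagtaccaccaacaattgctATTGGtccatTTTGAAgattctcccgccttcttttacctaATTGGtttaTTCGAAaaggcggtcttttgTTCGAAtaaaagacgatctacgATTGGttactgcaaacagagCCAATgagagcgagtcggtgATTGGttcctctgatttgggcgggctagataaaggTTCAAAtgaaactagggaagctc

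E2F letters stood in 1.86% of the 32851 windows of all genes, in 5 of 13 S genes (38.5%, namely Hells, Mcm5, Mcm6, Mcm7 and Uhrf1) and in 1 of 17 G2/M genes (5.88%, namely Cdk1). Members are counted by gene, with a match in any window, while all genes are counted by window, so the shares are not of quite the same unit. Mcm7 and Uhrf1 each had E2F letters in only 1 of their 2 windows. CHR letters stood in 17.1% of all windows, in 2 of 13 S genes (15.4%) and in 8 of 17 G2/M genes (47.1%). CCAAT stood in 33.8% of all windows, in 9 of 13 S genes (69.2%) and in 15 of 17 G2/M genes (88.2%). CHR and CCAAT stood together in 6.02% of all windows, in 2 of 13 S genes (15.4%) and in 8 of the 17 G2/M genes (47.1%). The Mcm6 window held 3 E2F matches, of which 2 overlapped on opposite strands. The Top2a window held 4 CHR and 6 CCAAT matches, that of Mki67 2 and 3, and that of Cdk1 2 and 3 beside 1 E2F match. The Ccnb1 window held 2 CCAAT matches and neither of the other letter groups. A match describes these letters only and is not evidence of binding.

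The clearest order in these genes was between cell classes. Summed over the 4 conditions, the 20 G2/M genes stood at 835 CPM in the immune-like class, 760 in the fibroblast-like class, 739 in the mixed cluster, 405 in the basal-like class, 299 in the HR-negative class and 176 in the HR-positive class. The unit is CPM (counts per-million), a gene's UMIs over all UMIs of the cells summed, scaled to that total. The 15 S genes followed a flatter order, from 421 in the mixed cluster, 335 in the immune-like and 324 in the fibroblast-like class to 240 in the basal-like, 202 in the HR-positive and 182 in the HR-negative class. Among these 6 groups the G2/M sum was lowest in the HR-positive class in every condition, at 184 CPM in COL1, 186 in STIFF, 169 in SOFT and 170 in MATR. Cluster 2, which is not in this order, stood at 298 in COL1, 325 in STIFF, 162 in SOFT and 190 in MATR, so in SOFT it lay below the HR-positive class, and endothelial-like cells (24 in all) were too few to place. Among the 6 groups the highest G2/M sum was that of the immune-like class in COL1 (835), MATR (785) and SOFT (906), and that of the mixed cluster in STIFF (983). The order covers tagged cells only, and the place of the HR-negative class in it was not secure. In MATR that class (425) lay level with the basal-like class (421). Among untagged barcodes of the COL1 and STIFF channel, the HR-negative class stood at 474.0 CPM and the basal-like class at 431.9. In the MATR and SOFT channel these were 392.4 and 474.9.

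**Figure D1:**
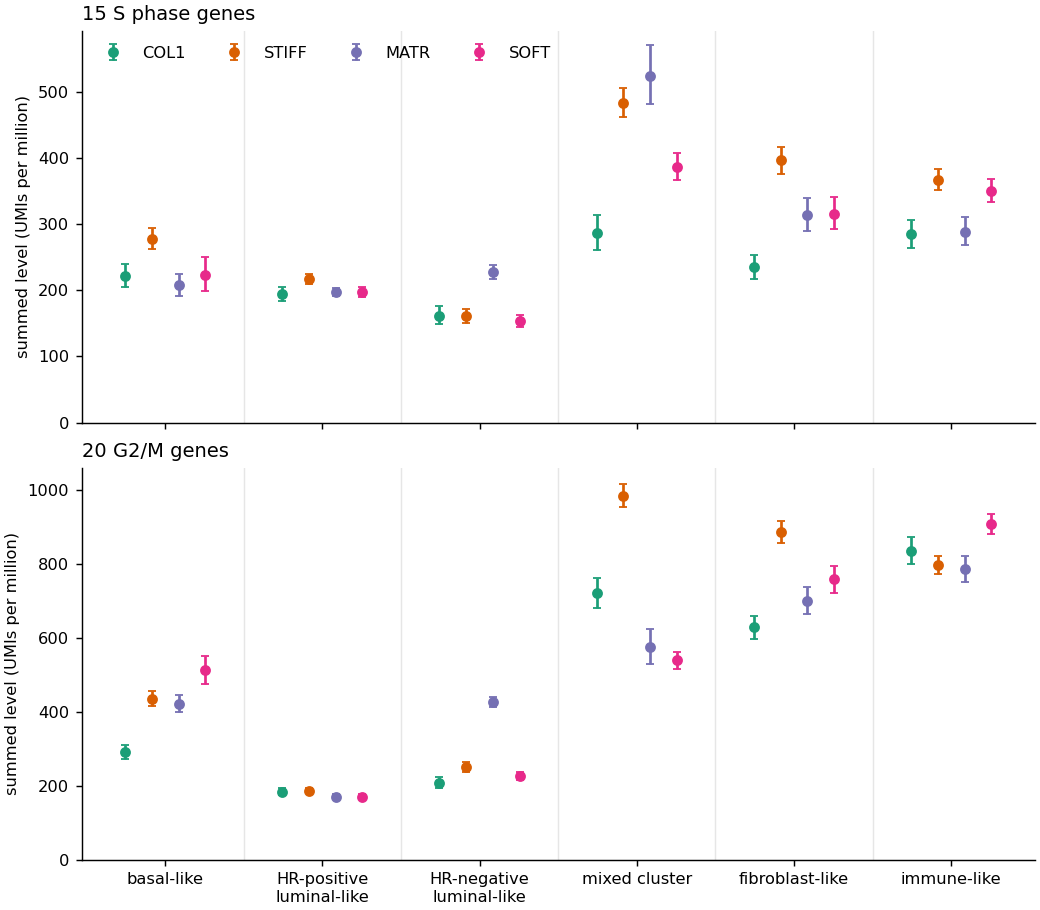
Summed level of the 15 S phase genes (upper) and 20 G2/M genes (lower), in CPM, by class and condition. Points are 1 culture each and bars are exact 95% Poisson intervals, which cover counting error only. The HR-positive class lies between 169 and 186 for the G2/M genes in the 4 conditions, below the other 5 groups drawn.

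Gene by gene, 18 of the 20 G2/M genes had their lowest level in the HR-positive class, and the other two, Cks2 and Aurka, in the HR-negative class. Of the 15 S genes 11 were lowest in the HR-positive class. The highest class was the fibroblast-like one for 11 G2/M genes, the immune-like one for 8 and the mixed cluster for Ube2c, the enzyme that adds ubiquitin with the anaphase-promoting complex. For 11 of the 15 S genes it was the mixed cluster. The median ratio of highest to lowest class was 26.1 for the G2/M genes and 4.51 for the S genes.

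Mki67, which coats mitotic chromosomes and is the usual mark of cycling cells, ranged from 1.17 CPM in the HR-positive class to 67.8 in the immune-like class, a 57.8-fold difference. Bub1, a spindle checkpoint kinase, spanned 47.1-fold and Ccna2, the cyclin of S phase and early mitosis, 43.7-fold. Top2a, the topoisomerase that untangles replicated chromosomes, spanned 26.3-fold, and Ccnb1, the cyclin that activates Cdk1 at mitotic entry, 33.1-fold. Cdk1, the kinase of mitotic entry, spanned 10.4-fold, from 4.28 in HR-positive to 44.3 CPM in fibroblast-like cells. Within the immune-like class the level of Mki67 was 67.9 in COL1, 61.4 in STIFF, 80.9 in SOFT and 57.1 in MATR, so it was high in all conditions. In the HR-positive class it was 0.879, 2.74, 0.595 and 0.441 in the same order, and no condition there reached the lowest value of another class.

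The S genes split. Rrm2, the regulated subunit of ribonucleotide reductase, which makes deoxynucleotides, spanned 22.7-fold and Mcm5, a subunit of the replicative helicase, 15.1-fold, within the range of the G2/M genes. Uhrf1, which keeps DNA methylation through replication, spanned 7.85-fold. Pcna, the sliding clamp of the DNA polymerases, spanned only 1.82-fold and Gins2, a helicase partner, 1.68-fold. Dut, which removes dUTP before it enters DNA, was as high in the HR-positive class (70.1 CPM) as in the mixed cluster (70.6). On the G2/M side, Hmgb2, a chromatin protein, spanned 2.70-fold, Cks2, a small partner of Cdk1, 3.69-fold and Aurka, the centrosome kinase, 3.81-fold.

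**Figure D2:**
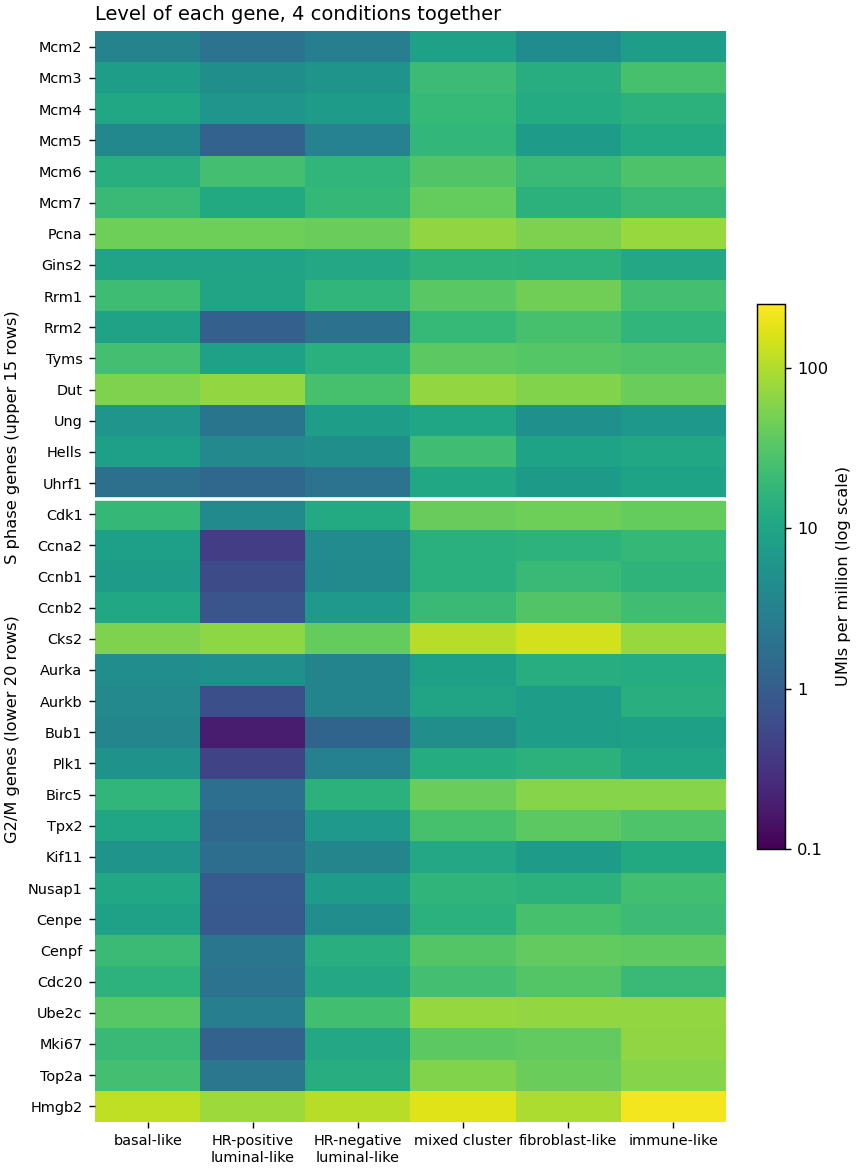
Level of each of the 35 genes by class, in CPM on a log colour scale, 4 conditions together. Most G2/M rows are darkest in the HR-positive column, where Mki67 is at 1.17, while Pcna, Dut, Cks2 and Hmgb2 stay bright in all columns.

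A few members carried much of each sum. Dut gave 22.8% and Pcna 20.7% of the UMIs of the S genes, and Hmgb2 gave 30.4% and Cks2 18.3% of those of the G2/M genes. In the HR-positive class Hmgb2 and Cks2 made up 83.2% of the G2/M UMIs, so its sum says little of the other 18 genes. Without these, the G2/M level was 29.6 CPM in HR-positive cells, 149 in HR-negative, 230 in basal-like, 460 in the mixed cluster, 519 in fibroblast-like and 543 in immune-like cells. The order of the classes was the same.

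Detection in the same cell set the same genes apart. Each of 8041 tagged cells of at least 4000 UMIs was thinned to 4000. Of the UMIs of Nusap1, a spindle protein, 92.3% fell in cells that also held at least 3 other G2/M genes. For Ccna2 this was 91.0%, for Bub1 88.1%, for Plk1, a mitotic kinase, 87.2%, for Top2a 84.8%, for Ccnb1 84.3%, for Mki67 79.1% and for Cdk1 65.3%. Among the S genes it was 74.4% for Rrm2, 53.9% for Uhrf1 and 46.0% for Mcm5, but 12.1% for Pcna, 10.9% for Dut and 10.6% for Mcm4, another helicase subunit. On the G2/M side Cks2 (18.4%) and Hmgb2 (28.0%) lay with the second kind.

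Pairs gave the same picture. Of 248 cells with an Mki67 UMI, 49.6% also had Top2a, against 1.49% of the rest, and 25.0% had Ccnb1, against 0.629%. Rrm2 stood in 21.8% of Mki67 cells against 0.962% of the rest. Pcna stood in 33.5% of Mki67 cells against 15.8% of the rest, so most cells with a Pcna UMI had no Mki67 UMI at this depth. These shares depend on the depth and are descriptions of 1 pool of cells. A Pcna UMI was found in 12.8% of basal-like and 21.7% of immune-like cells, and an Mki67 UMI in 0.286% of HR-positive and 15.4% of immune-like cells. No class is known to lack these genes, and the part of free RNA was not tested.

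**Figure D3:**
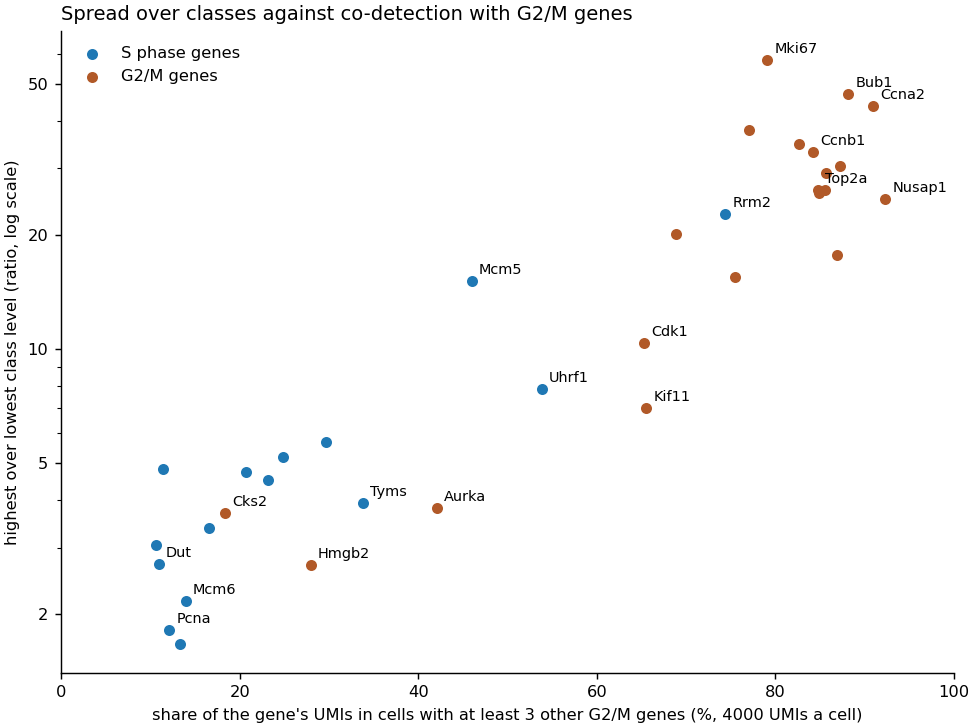
For each gene, the ratio of its highest to its lowest class level (log axis) against the share of its UMIs in cells with at least 3 other G2/M genes (cells thinned to 4000 UMIs). Mki67, Bub1 and Ccna2 lie at the upper right with ratios above 40, and Rrm2 is the S gene nearest to them, while Pcna, Dut, Cks2 and Hmgb2 lie at the lower left.

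Cells with at least 3 different S genes or at least 3 different G2/M genes were then counted at 4000 UMIs a cell. Of 8041 cells, 244 had 3 or more S genes only, 214 had 3 or more G2/M genes only, 155 had both and 7428 had neither. The cells with both were the deepest before thinning, with a median of 26273 UMIs against 14690 in cells with neither. The part of RNA content, depth or doublets in this was not tested. The 369 cells of the G2/M kind held 52.1% of all UMIs of the G2/M genes, and the 399 of the S kind held 27.7% of those of the S genes. In the immune-like class 31 of 785 cells were of the S kind only, 72 of the G2/M kind only and 60 of both. In the HR-positive class these were 106, 23 and 6 of 3845 cells, so nearly all cells there were of neither kind and most of the rest had S genes only. Most HR-positive cells of the S kind lay at the cut, with exactly 3 S genes in 10 of 12 in COL1, 30 of 36 in STIFF, 30 of 33 in SOFT and 30 of 31 in MATR. The cut is a point in a range: 120 cells of COL1, 185 of STIFF, 144 of MATR and 157 of SOFT had exactly 2 G2/M genes, and 17, 26, 17 and 24 had exactly 3. For the S genes 145, 270, 257 and 249 cells had exactly 2, and 29, 87, 58 and 63 exactly 3, in the same order.

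The share of cells with at least 3 G2/M genes was 4.93% in COL1 (exact Clopper-Pearson interval 3.86 to 6.19; 70 of 1420 cells), 5.87% in STIFF (4.97 to 6.88; 142 of 2420), 2.93% in MATR (2.28 to 3.71; 67 of 2287) and 4.70% in SOFT (3.80 to 5.75; 90 of 1914). MATR was thus the lowest, and its interval overlapped no other. Cells under 4000 UMIs were left out, 143 in COL1, 31 in STIFF, 27 in SOFT and 46 in MATR. Without thinning the shares were 18.3%, 23.5%, 22.5% and 16.03% in that order. For at least 3 S genes they were 3.66% in COL1, 6.65% in STIFF, 5.23% in SOFT and 3.76% in MATR (unthinned 31.8%, 49.0%, 44.5% and 40.0%).

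By class the G2/M kind made up 18.3%, 16.1%, 12.2% and 19.3% of immune-like cells in COL1, STIFF, MATR and SOFT. In the fibroblast-like class the shares were 9.74%, 18.1%, 7.84% and 16.05%, and in the mixed cluster 6.604%, 21.4%, 9.62% and 9.68%. They were 2.79%, 8.87%, 3.89% and 5.26% of basal-like, 1.92%, 2.78%, 4.04% and 1.49% of HR-negative and 1.17%, 0.749%, 0.810% and 0.486% of HR-positive cells. STIFF was above COL1 in these shares in the basal-like, HR-negative, mixed and fibroblast-like cells. The lowest and highest conditions had overlapping intervals in every class but the mixed cluster, where COL1 (2.70 to 13.1) lay below STIFF (13.9 to 30.5). Of the cells of this kind, immune-like cells were 37.1% in COL1, 27.5% in STIFF, 54.4% in SOFT and 26.9% in MATR, so the class makeup of a culture enters its overall share.

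**Figure D4:**
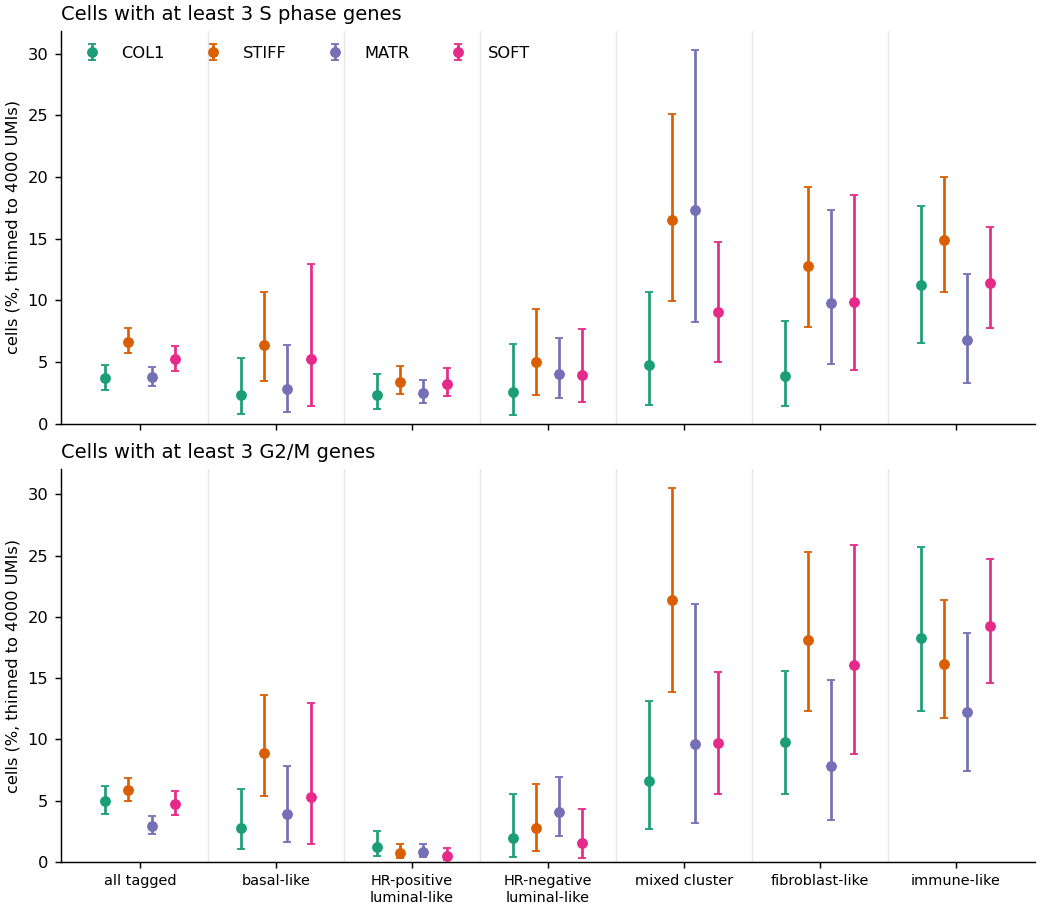
Share of cells (%) with at least 3 of the 15 S genes (upper) and at least 3 of the 20 G2/M genes (lower) after thinning to 4000 UMIs, by class and condition, with exact 95% binomial intervals. In the mixed cluster STIFF stands at 21.4% and COL1 at 6.604% for the G2/M genes, and the HR-positive class is at or under 1.17% in all conditions.

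Between conditions over all tagged cells the sums moved little. The G2/M sum was 373 CPM in COL1, 425 in STIFF, 358 in SOFT and 310 in MATR, and the S sum 216, 277, 239 and 219. A gene counted as measured in a comparison at 5 CPM or more in 1 of both conditions, and as higher or lower past 1.5-fold on the scale of log2 of the level plus 10 CPM. In none of the 4 comparisons did a measured member pass 1.5-fold on that scale. Of all genes measured, 0.987% were higher and 0.518% lower in COL1 over STIFF, 0.953% and 1.74% in MATR over SOFT, 2.39% and 0.597% in COL1 over MATR, and 1.4% and 0.964% in STIFF over SOFT. COL1 over MATR and STIFF over SOFT compare different droplet channels, so channel and matrix cannot be told apart in them. The protocol is the same for both channels and names V2 chemistry for the chips and V3 for the library kit. In addition, comparisons that share a culture are not independent. The median log2 ratio of all genes measured was -0.02 in COL1 over STIFF and in MATR over SOFT, and 0.02 in the other comparisons. Many members were found in the same cells, so counts of members that lean the same way are not counts of independent results.

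COL1 stood below STIFF, but for the G2/M genes by an amount that depended on the processing. The S sum ratio was 0.780 (0.755 to 0.805) and the G2/M ratio 0.879 (0.857 to 0.901). With each cell weighted equally the G2/M log2 ratio was -0.0068, so almost no difference was left. The tag margin rule gave -0.082. Larger differences came with the relative tag rule (-0.25), without cluster 2 (-0.25) and without Hmgb2 and Cks2 (-0.32). Thinned to 8000 UMIs, cells with at least 3 G2/M genes were 9.98% in COL1 and 9.04% in STIFF. Thinned to 2000, they were 3.19% and 4.06%. All 13 measured S genes were lower in COL1, least so Rrm1, the large subunit of ribonucleotide reductase (log2 ratio -0.06), Ung, which cuts uracil from DNA (-0.07), and Mcm7 (-0.09), and most so Dut (-0.42), Mcm6 (-0.35) and Rrm2 (-0.34). Dut was at 43.9 CPM in COL1 and 61.9 in STIFF, 1.41-fold lower. Mcm5 was at 3.20 and 6.62, and Pcna at 49.1 and 54.3. The added 10 CPM damps the ratios of genes at low levels. Without it Mcm5 was 2.07-fold (1.61 to 2.69) and Rrm2 1.70-fold (1.41 to 2.06) lower in COL1. Of the G2/M genes 16 of 18 measured were lower in COL1. Cks2 (73.9 against 58.9) and Ccnb2, the second B-type cyclin (10.7 against 9.56), were higher. The lowest were Tpx2, a spindle assembly factor (log2 ratio -0.31), Birc5, survivin of the chromosomal passenger complex (-0.28), and Top2a (-0.28). Mki67 was at 17.6 and 20.01 (-0.12), Cdk1 at 16.5 and 19.3 (-0.15) and Ccnb1 at 5.92 and 7.36 (-0.12).

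MATR stood below SOFT by a like amount for the G2/M genes, with a ratio of 0.868 (0.847 to 0.889), and by less for the S genes, 0.916 (0.890 to 0.943). All 16 measured G2/M genes were lower in MATR. The 3 lowest were Cdk1 (11.2 against 18.2 CPM, log2 ratio -0.41), Birc5 (-0.38) and Mki67 (11.6 against 17.2, -0.33). Cdc20, which activates the anaphase-promoting complex (-0.01), Hmgb2 (-0.02) and Cenpe, a kinetochore motor (-0.02), differed least, and Top2a (-0.27) and Ccnb1 (-0.14) lay between. Among the S genes Mcm7 (-0.34), Hells, a chromatin remodeller (-0.31), and Rrm1 (-0.21) were lowest in MATR, and Dut was the 1 gene that was higher (58.8 against 49.1, 0.22). Mcm6 (-0.01), Gins2 (-0.04) and Pcna (-0.05) differed little, and Rrm2 stood at -0.19 and Mcm5 at -0.16. Given the same class makeup in both conditions, an alternative chosen after seeing the data, the log2 ratios of the sums were 0.01 for both lists, against -0.13 (S) and -0.20 (G2/M) as measured. With equal class makeup the lower sums in MATR were no longer seen, but the part of class makeup in them was not tested.

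Across channels COL1 stood above MATR for the G2/M genes, with a ratio of 1.20 (1.17 to 1.24), and level with it for the S genes, 0.985 (0.951 to 1.02). Mki67 (17.6 against 11.6 CPM, log2 ratio 0.35), Top2a (0.33) and Cdk1 (0.32) were highest in COL1 among the 16 measured G2/M genes, all of which were above 0. Ccna2 (0.04), Cdc20 (0.05) and Cks2 (0.09) were nearest to it, and Ccnb1 stood at 0.16. Of the S genes Rrm1 (0.32), Rrm2 (0.21) and Hells (0.18) were highest, Pcna stood at 0.05, and Dut (-0.35), Mcm6 (-0.21) and Gins2 (-0.10) were lowest. Mcm5 was not measured, at 3.20 and 3.70. With the same class makeup, again a setting chosen after seeing the data, the G2/M log2 ratio was -0.03 against 0.27 as measured. The part of class makeup in this difference was not tested.

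STIFF stood above SOFT, with a ratio of 1.16 (1.13 to 1.19) for the S genes and 1.19 (1.16 to 1.21) for the G2/M genes. Tpx2 (14.3 against 8.09 CPM, log2 ratio 0.43), Top2a (0.34) and Nusap1 (0.33) were highest among the G2/M genes. Cks2 was the 1 of 18 measured that was lower (58.9 against 74.0, -0.29), after Ccnb2 (0.04) and Cdk1 (0.06), and Mki67 and Ccnb1 both stood at 0.14. Of the S genes Rrm2 (10.3 against 5.86, 0.36), Dut (0.28) and Tyms, which makes thymidylate (0.21), were highest and Mcm7 (-0.12), Ung (-0.00) and Hells (0.04) lowest, with Pcna and Mcm5 both at 0.12. With the same class makeup the G2/M log2 ratio was 0.18 against 0.25 as measured.

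**Figure D5:**
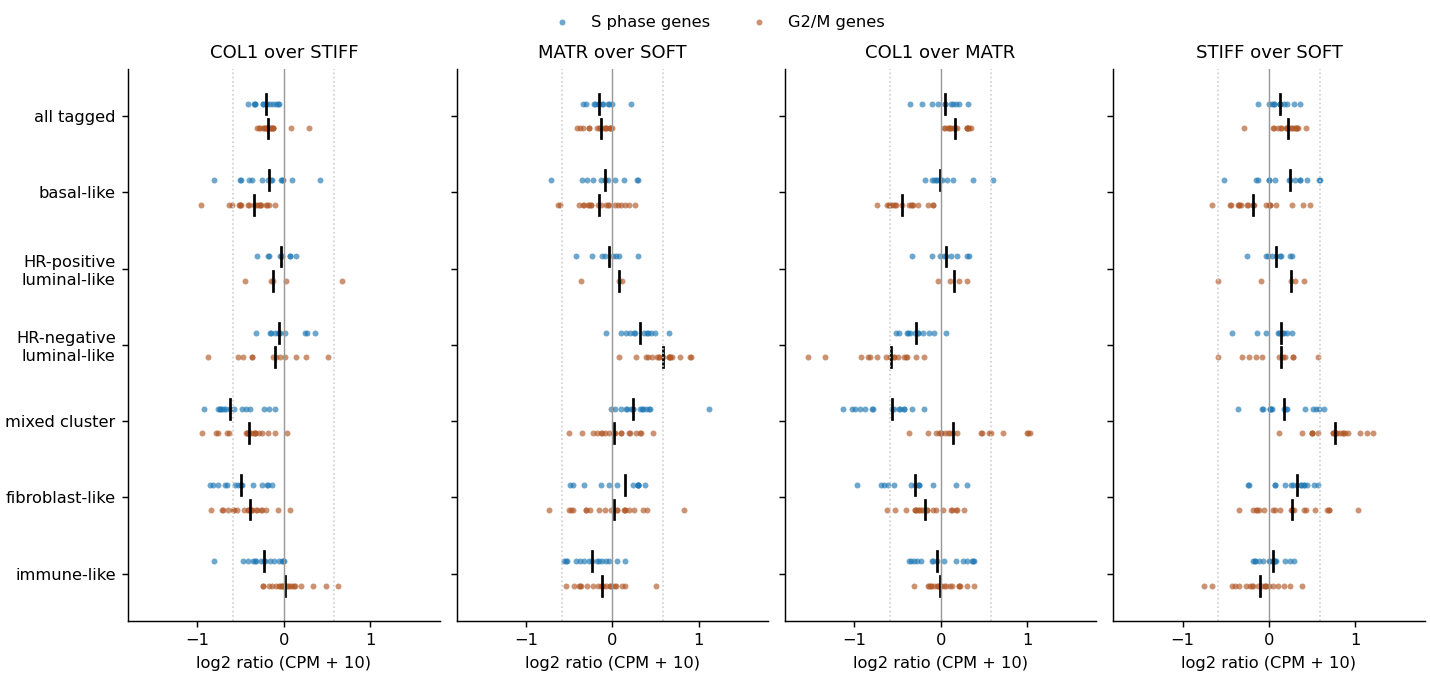
Log2 ratio of the level plus 10 CPM of each measured member (points), by class and comparison, with the median as a bar and 1.5-fold as dotted lines. Over all tagged cells no point passes 1.5-fold, and in the mixed cluster 14 G2/M genes do so in STIFF over SOFT.

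Within classes larger differences appeared. Of 48 sums compared, 7 passed 1.5-fold, and the mixed cluster held 3 of them. In that cluster the G2/M genes stood at 720 CPM in COL1, 983 in STIFF, 538 in SOFT and 575 in MATR, so STIFF was the highest. In STIFF over SOFT the ratio was 1.83 (1.73 to 1.93), and all 20 genes were above 0 and 14 of them past 1.5-fold, against 1.49% of all genes. Cenpf, a kinetochore protein, was at 47.4 and 14.9 CPM, Tpx2 at 42.6 and 14.1 and Ube2c at 108 and 46.6, the largest log2 ratios (1.21, 1.13 and 1.05). Top2a was at 78.7 and 38.8, Cdk1 at 54.6 and 28.4, Mki67 at 48.4 and 25.0, and Ccnb1 at 22.8 and 7.81, a 2.92-fold difference (1.91 to 4.57). Cks2 (0.12), Ccna2 (0.38) and Bub1 (0.50) were lowest. The S genes moved less, with 1 of 15 past the fold, Rrm1 (44.6 against 25.3), and Rrm2 (0.58) and Dut (0.54) next. Mcm5 (0.01) and Pcna (0.20) lay near 0, and Gins2 (-0.36), Ung (-0.08) and Mcm2 (-0.06) were lowest.

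In the same cluster the S genes were low in COL1, at 286 CPM against 483 in STIFF, 387 in SOFT and 524 in MATR. COL1 over STIFF gave a ratio of 0.591 (0.533 to 0.655), all 15 genes were lower, and 8 passed 1.5-fold against 2.43% of all genes. The helicase subunits Mcm5 (5.54 against 19.5, log2 ratio -0.93), Mcm4 (-0.76) and Mcm7 (-0.74) led, and Rrm2 stood at -0.39. Gins2 (-0.10), Ung (-0.17) and Pcna (-0.23) differed least. Of the 20 G2/M genes 5 were past the fold, led by Tpx2 (-0.95), Cdc20 (-0.78) and Top2a (-0.76). Mki67 stood at -0.39, Cdk1 at -0.33 and Ccnb1 at -0.34, and Cks2 (0.03), Ccna2 (-0.10) and Cenpf (-0.18) lay nearest to 0. In COL1 over MATR 7 of 15 S genes were lower past the fold, against 2.96% of all genes, again with Mcm5 (-1.13), Mcm4 (-1.02) and Mcm3 (-0.99) in front. Rrm2 stood at -0.93 and Pcna at -0.46, and Rrm1 (-0.19), Uhrf1 (-0.33) and Hells (-0.42) were nearest to 0. The G2/M genes went the other way there: 4 of 20 were higher in COL1 past the fold, against 4.23% of all genes, namely Ube2c (1.04), Nusap1 (1.01), Cenpf (40.6 against 15.3 CPM) and Ccnb1 (0.72). Mki67 stood at 0.56 and Cdk1 at 0.08, while Top2a (-0.36), Tpx2 (-0.145) and Aurkb (-0.05), a kinase of the chromosomal passenger complex, were lowest.

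These values rest on few cells. The mixed cluster had 112 cells in COL1, 104 in STIFF, 158 in SOFT and 54 in MATR, with median depths of 10311, 33747, 19359 and 16643 UMIs. The 5 cells with the most UMIs of the 20 G2/M genes held 73.2% of them in COL1, 45.9% in STIFF, 43.9% in SOFT and 75.5% in MATR. For the S genes the 5 cells with the most of their UMIs held 46.34%, 30.55%, 32.14% and 61.61% in the same order. In MATR most S gene UMIs of the cluster thus came from 5 cells. Its summed level of 10 basal markers was also unequal, at 1347, 3353, 1137 and 703 CPM, as was that of 8 macrophage and other immune markers, at 101, 224, 71.1 and 116. The 10 HR-negative markers lay between 20260 and 25350, and the 4 B lymphocyte and 5 adipocyte markers were at 0. Their part in the differences was not tested.

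In the fibroblast-like class the S genes were lower in COL1 (234 CPM) than in STIFF (396), MATR (314) and SOFT (316). COL1 over STIFF gave 0.592 (0.538 to 0.651), with all 15 genes lower and 5 past 1.5-fold, against 2.95% of all genes. Mcm6, whose promoter with 3 E2F matches is printed above, stood at 8.43 and 23.2 CPM (log2 ratio -0.85), Rrm2 at 16.1 and 36.1 (-0.82) and Mcm4 at -0.76. Pcna stood at -0.54 and Mcm5 at -0.50, and Mcm2 (-0.14), Mcm7 (-0.18) and Ung (-0.19) differed least. Of the 20 G2/M genes 5 were lower past the fold. Birc5 was at 42.5 and 84.4 (-0.85), Mki67 at 28.0 and 52.5 (-0.72) and Tpx2 at -0.70, followed by Top2a at -0.64. Cdk1 stood at -0.37 and Ccnb1 at -0.38, and Cks2 (0.07), Ccnb2 (-0.07) and Cdc20 (-0.21) were nearest to 0. HR-negative markers in this class stood at 2035 CPM in COL1, 6493 in STIFF, 3909 in SOFT and 2515 in MATR, and macrophage and other immune markers at 854, 783, 1653 and 305. Median depth was 14101 UMIs in COL1 and 20289 in STIFF. At matched depth 6 of 154 COL1 cells and 19 of 149 STIFF cells had at least 3 S genes. The 5 cells with the most UMIs of the 15 S genes held 27.0% of them in COL1 and 29.6% in STIFF. For the 20 G2/M genes it was 50.2% and 40.1%. The part of these markers, of depth and of few cells in the differences was not tested. With the median over members in place of the sum the S log2 ratio was -0.50, short of 1.5-fold.

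In the basal-like class G2/M genes were lowest in COL1, at 290 CPM against 435 in STIFF, 512 in SOFT and 421 in MATR. COL1 over STIFF gave 0.667 (0.614 to 0.723), and all 19 measured genes were lower, 3 of them past 1.5-fold against 1.53% of all genes. Tpx2 was at 3.10 and 15.5 CPM, Birc5 at 8.96 and 19.5 and Top2a at 13.8 and 26.2, and Mki67 stood at 12.4 and 22.2 (log2 ratio -0.52) and Cdk1 at -0.42. Ccnb2 (-0.11), Cks2 (-0.17) and Ccnb1 (-0.19) differed least. Among the S genes Rrm2 (4.82 against 15.9, -0.80) passed the fold, Dut (-0.50) and Mcm5 (-0.49) were next, and Ung (0.42), Rrm1 (0.09) and Pcna (-0.01) were highest. Median depth was 8691 UMIs in COL1 and 19615.5 in STIFF. The 10 HR-positive markers stood at 949 and 1974 CPM, the 10 HR-negative markers at 9210 and 9474, and the 10 basal markers at 7317 and 8411. A finer clustering resolution (1.0) set apart an unnamed cluster with basal and HR-negative markers, holding 57 cells of COL1 and 87 of STIFF. Its median doublet score was 0.2024, against 0.024 in the basal-like cluster of that resolution. The 5 cells with the most UMIs of the 20 G2/M genes held 57.0% of them in COL1 and 47.2% in STIFF. The part of these in the difference was not tested. The G2/M log2 ratio lay at the threshold (-0.585) and passed it in 3 of 10 alternatives. These ran from -0.82 without Hmgb2 and Cks2 to -0.02 at the finer clustering resolution, all 10 with the same sign. At that resolution, which counts other cells as basal-like, little of the difference was left, and why was not tested.

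In the HR-negative class MATR stood out, with G2/M genes at 425 CPM against 208 in COL1, 250 in STIFF and 226 in SOFT. MATR over SOFT gave 1.88 (1.772 to 2.004). All 17 measured genes were above 0, and 9 were past 1.5-fold, against 0.676% of all genes. Top2a, whose promoter letters are printed above, was at 22.9 and 7.44 CPM, Cdc20 at 17.9 and 4.96 and Ube2c at 37.7 and 17.8. Cdk1 stood at 18.8 and 9.76, Mki67 at 17.8 and 10.2, and Ccnb1 (0.27), Aurkb (0.39) and Cks2 (0.08) were lowest in log2 ratio. Of the S genes Dut (35.3 against 18.8) passed the fold, Mcm3 (0.50) and Tyms (0.45) followed, Mcm5 stood at 0.41 and Pcna at 0.37, and Mcm7 (-0.07), Hells (0.10) and Ung (0.16) were lowest. Rrm2 was not measured, at 3.71 and 0.310. COL1 over MATR gave 0.489 (0.451 to 0.531), with 8 of 17 measured genes lower past the fold against 0.357% of all genes, led by Ube2c (6.47 against 37.7), Cenpf (3.24 against 23.5) and Birc5 (7.35 against 22.9). Top2a stood at -0.74, Cdk1 at -0.64, Mki67 at -0.54 and Ccnb1 at -0.40, and Kif11, a spindle motor (-0.19), Cks2 (-0.28) and Aurkb (-0.38) were nearest to 0. Among the S genes no member passed the fold there, Dut (-0.51), Tyms (-0.48) and Mcm3 (-0.39) were lowest, Mcm5 stood at -0.35 and Pcna at -0.21, and Hells (0.07), Mcm7 (-0.08) and Mcm4 (-0.13) were highest.

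This came from few cells too. At matched depth 12 of 297 MATR cells and 3 of 201 SOFT cells of the class had at least 3 G2/M genes. The 5 cells with the most UMIs of the 20 G2/M genes held 55.1% of them in MATR and 50.03% in SOFT. When cell cycle genes were left in the clustering, the MATR over SOFT log2 ratio was 0.03 against 0.91, and COL1 over MATR was 0.07 against -1.03, a turn in direction. These 2 differences therefore depend on how the class is drawn.

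In the HR-positive and immune-like classes no sum over all members passed 1.5-fold, but in HR-positive cells this holds only with Hmgb2 and Cks2 counted. The HR-positive G2/M ratio was 0.9896 (0.925 to 1.06) in COL1 over STIFF and 1.004 (0.952 to 1.06) in MATR over SOFT, and immune-like ones were 1.05 (0.994 to 1.10) and 0.866 (0.821 to 0.913). Without Hmgb2 and Cks2, a setting chosen after seeing the data, the other 18 G2/M genes stood in HR-positive cells at 25.3 CPM in COL1, 50.8 in STIFF, 26.4 in SOFT and 15.99 in MATR. STIFF was thus the highest and MATR the lowest, with log2 ratios of -1.004 in COL1 over STIFF, -0.73 in MATR over SOFT, 0.94 in STIFF over SOFT and 0.66 in COL1 over MATR, all past 1.5-fold. The 5 cells with the most UMIs of all 20 G2/M genes held 21.2% of those in STIFF and 3.05% to 6.61% in the other conditions. That share was not taken for the 18 genes alone, so how few cells carry their differences is not known. Of single members in HR-positive cells, Cks2 was at 75.6 CPM in COL1 and 43.8 in STIFF, 70.9 in SOFT and 77.6 in MATR, so STIFF was low. In immune-like cells Dut was at 25.7 in COL1, 52.6 in STIFF, 41.4 in SOFT and 35.4 in MATR, and Ube2c at 78.8, 47.6, 80.9 and 87.9.

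Other cell cycle genes were read from lists taken from standard phase lists and textbook regulators. Over all tagged cells none of 31 other S genes, 37 other G2/M genes and 15 brakes passed 1.5-fold in a comparison, and of 11 genes of G1 entry Ccnd2 was higher (33.8 against 16.4 CPM) and Ccnd1 lower (89.4 against 147) in COL1 over MATR. These are the D-type cyclins that answer growth signals. In the other S list Ubr7 had the highest log2 ratio of COL1 over STIFF (0.11) and Prim1, the DNA primase subunit (-0.30), and Nasp, a histone chaperone (-0.18), the lowest. Of the brakes Cdkn2b, an inhibitor of Cdk4 and Cdk6, was at 39.8 in COL1, 27.9 in STIFF, 43.0 in SOFT and 26.4 in MATR, and Btg2, an antiproliferative gene, at 476, 542, 423 and 609.

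In the mixed cluster 5 of 31 other S genes were lower in COL1 than in STIFF past the fold, against 2.43% of all genes, led by Dtl (1.23 against 16.3 CPM), of a ubiquitin ligase that acts in S phase, and Clspn (4.31 against 16.5), of the replication checkpoint. Against MATR it was 9 of 31 (2.96% of all genes), with Dtl at 1.23 and 18.2 and Casp8ap2 at 14.8 and 39.3. Of the 15 brakes 3 were higher in COL1 than in STIFF, against 1.77% of all genes, among them Gadd45a, a stress-induced gene (83.1 against 48.1), and Cdkn2b (91.1 against 53.4), and 4 were higher than in MATR, against 4.23%, among them Btg2 (247 against 103). In STIFF over SOFT 5 of 37 other G2/M genes were higher, against 1.49% of all genes, led by Hmmr, a spindle protein (35.1 against 11.2), and Smc4 of condensin (70.7 against 38.3). In the fibroblast-like class 3 of 31 other S genes and 3 of 37 other G2/M genes were lower in COL1 than in STIFF, against 2.95% of all genes, among them Rad51ap1 (1.53 against 8.18) and Hmmr (24.9 against 46.7). The brakes Cdkn1a, which encodes p21 (204 against 369), and Cdkn2a (25.7 against 52.5) were lower there too. In HR-negative cells none of the other S or G2/M genes passed the fold upward in MATR over SOFT (0.676% of all genes), where Hmmr stood at 10.4 and 4.34 and Btg2 at 961 and 519, and in basal-like cells Ccnd1 was lower in COL1 than in STIFF (37.6 against 69.8).

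Over all classes, barcodes with and without at least 3 G2/M genes went untagged at like shares, while calls of both tags and single classes differed. At matched depth 42.2% of barcodes with at least 3 G2/M genes (interval 37.5 to 46.9, n = 441) had no tag in the channel of COL1 and STIFF, against 44.7% of the others. In the channel of MATR and SOFT it was 35.6% (29.98 to 41.6, n = 275) against 41.0%. Barcodes with both tags, which hold cells of both cultures, were 9.75% of those with at least 3 G2/M genes against 3.67% of the others, and 7.27% against 3.50%. Those with at least 3 G2/M genes were also deeper, with medians of 20361 against 12129 UMIs and 22403 against 12852. The part of depth was not tested. Among immune-like barcodes with at least 3 G2/M genes 0 of 81 and 0 of 77 were untagged, which allows up to 4.45% and 4.68% by the exact interval. In the HR-negative class 87.8% and 73.8% of such barcodes had no tag, against 77.0% and 69.0% of the others, so most cycling barcodes of this class are outside the comparisons above.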

How the data were processed

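Single-cell RNA libraries of 4 organoid cultures were read from 10x matrices of UMI counts per gene and barcode, which the authors deposited; Cell Ranger 5.0.0, Seurat 4.2.0 and mm10 are named in the submitters' processing notes. Each channel was deposited as 2 entries with equal gene counts and was used once. Barcodes under 1000 UMIs or 500 genes, or with over 15% mitochondrial UMIs, were left out. Tags were called with HTODemux (Seurat 5.3.0, R 4.3.3, quantile 0.99), and barcodes with no tag or both tags entered no comparison. Scrublet called 0 doublets, so its calls had not worked and no doublet caller was applied. The doublet scores given here come from the same Scrublet run and were not checked otherwise. From the barcodes with both tags, same-tag doublets were estimated at 8.37% and 6.60% of tagged cells. Cells were clustered with scanpy 1.11.5 (2000 variable genes without cell cycle genes, 30 components, 15 neighbours, Leiden resolution 0.5), and a cluster was named from at least 3 markers at 20 CPM and 2-fold. UMI counts were summed per condition and class and divided by the total (CPM). COL1 had 23466134 UMIs in sum, STIFF 52611678, MATR 43831075 and SOFT 37224614. Intervals are exact at 95% (Poisson for levels, Clopper-Pearson for shares, conditional binomial for ratios) and, with 1 culture per condition, cover counting error only. Log2 ratios of single genes are of the level plus 10 CPM. Ratios and log2 ratios of sums, and folds given for single genes, are without it. The count and ratio code was tested on simulated data. Alternatives covered scaling, floors, tag rules, clustering, depth, doublet scores and class makeup. The members and lists were chosen with earlier results of these data known. Genes named in a comparison were Mki67, Top2a, Cdk1, Ccnb1, Pcna, Mcm5 and Rrm2, and the 3 highest and 3 lowest log2 ratios of each list.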

Additional observations from a re-analysis of the deposited data

Results flagged for a closer look

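A pair of values came from barcodes outside every comparison, those that no tag placed in a culture. In the channel of COL1 and STIFF, untagged barcodes had 483.8 CPM of the 20 G2/M genes (477.3 to 490.3), against 408.8 in tagged cells of that channel. In the channel of MATR and SOFT the level was 377.2 (371.1 to 383.5) against 332.1. The share of barcodes with at least 3 G2/M genes at matched depth was 5.59% untagged and 5.52% tagged in the first channel, and 3.18% and 3.74% in the second. In the HR-negative class untagged barcodes stood at 474.0 and 392.4 CPM, against 234.2 and 338.0 in tagged ones. The part of tag loss in these differences was not tested.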

How the results depend on the processing

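No paired analysis was possible because there was 1 culture per condition, and leaving out a replicate was not possible for the same reason. Log2 ratios of the sums follow in the order COL1 over STIFF, MATR over SOFT, COL1 over MATR and STIFF over SOFT where all are named; as reported they were -0.36, -0.13, -0.02 and 0.21 for the S genes and -0.19, -0.20, 0.27 and 0.25 for the G2/M genes. TMM scaling gave -0.090 (S) and 0.20 (G2/M) in COL1 over MATR and 0.16 and 0.19 in STIFF over SOFT. Weighting each cell equally gave -0.29 (S) and -0.0068 (G2/M) in COL1 over STIFF, -0.25 (G2/M) in MATR over SOFT, 0.33 (G2/M) in COL1 over MATR and 0.14 (S) and 0.083 (G2/M) in STIFF over SOFT. The tag margin rule gave -0.082, -0.24, 0.35 and 0.19 for the G2/M genes. The median over members gave -0.20 (S) in COL1 over STIFF, -0.13 (G2/M) in MATR over SOFT, 0.052 (S) and 0.16 (G2/M) in COL1 over MATR and 0.12 (S) in STIFF over SOFT. The relative tag rule gave -0.25 (G2/M) in COL1 over STIFF, -0.039 (S) and -0.034 (G2/M) in MATR over SOFT, 0.19 (G2/M) in COL1 over MATR, 0.27 (S) and 0.41 (G2/M) in STIFF over SOFT, and a SOFT share of cells with 3 G2/M genes of 3.56%. Leaving out the cells of highest doublet score gave -0.41 (S) and -0.13 (G2/M) in COL1 over STIFF, -0.076 (S) and 0.22 (G2/M) in COL1 over MATR and 0.15 (G2/M) in STIFF over SOFT.

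The next 3 settings were chosen after seeing the data. The same class makeup gave -0.30 (S) in COL1 over STIFF, 0.012 (S) and 0.013 (G2/M) in MATR over SOFT, -0.14 (S) and -0.026 (G2/M) in COL1 over MATR and 0.18 (G2/M) in STIFF over SOFT. Without cluster 2 the values were -0.25 (G2/M) in COL1 over STIFF, -0.073 (S) and -0.15 (G2/M) in MATR over SOFT, -0.080 (S) and 0.18 (G2/M) in COL1 over MATR and 0.29 (G2/M) in STIFF over SOFT. Without the 2 most abundant members of each list they were -0.32 (G2/M) in COL1 over STIFF, -0.32 (S) and -0.37 (G2/M) in MATR over SOFT, 0.11 (S) and 0.44 (G2/M) in COL1 over MATR and 0.39 (G2/M) in STIFF over SOFT.

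Shares of cells depend on depth and on the number of members asked for, here in COL1, STIFF, MATR and SOFT. Without thinning they were 31.8%, 49.0%, 40.0% and 44.5% for S and 18.3%, 23.5%, 16.03% and 22.5% for G2/M. Thinned to 2000 UMIs they were 1.22%, 2.34%, 1.12% and 1.87% for S and 3.19%, 4.06%, 2.08% and 3.32% for G2/M. Thinned to 8000 they were 14.8%, 16.6%, 12.4% and 14.1% for S and 9.98%, 9.04%, 5.13% and 8.99% for G2/M. With at least 2 members they were 13.9%, 17.8%, 15% and 18.2% for S and 13.4%, 13.5%, 9.23% and 12.9% for G2/M. With at least 5 members they were 0.634%, 2.02%, 0.656% and 1.52% for S and 3.17%, 4.26%, 1.97% and 2.87% for G2/M. Without the 2 most abundant members they were 1.41%, 3.51%, 1.40% and 2.77% for S and 3.73%, 4.79%, 2.10% and 3.29% for G2/M. In each of these settings the G2/M share was lowest in MATR.

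Within classes 1064 settings were run: 682 kept the value within its interval, 381 moved it and 1 turned a called value around. That 1 was COL1 over MATR of the G2/M genes in HR-negative cells, at 0.070 when cell cycle genes were left in the clustering. Of the 7 class differences past 1.5-fold, STIFF over SOFT in the mixed cluster passed it in all 9 settings that gave a value (0.71 to 1.18). The S genes in COL1 over STIFF passed it in 9 of 10 settings in fibroblast-like cells (-0.94 to -0.50) and in 8 of 9 in the mixed cluster (-0.88 to -0.58), and in COL1 over MATR in 5 of 7 in the mixed cluster (-1.04 to -0.49). The G2/M genes passed it in 7 of 10 settings in MATR over SOFT (0.03 to 1.25) and in 6 of 10 in COL1 over MATR (-1.59 to 0.070) in HR-negative cells, and in 3 of 10 in COL1 over STIFF in basal-like cells (-0.82 to -0.02). Without the 2 most abundant members, the G2/M sums that newly passed it were the 4 in HR-positive cells, COL1 over MATR in basal-like cells (-0.84) and COL1 over STIFF in the mixed cluster (-0.60) and in fibroblast-like cells (-0.67). The cause of the other shifts was not tested.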
